A study of Mus musculus with 12 samples.

Results

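The genes described here are 54 collagens, proteoglycans, elastic fibre and basement membrane components, matrix glycoproteins, and enzymes and inhibitors that process or degrade the extracellular matrix, taken by gene symbol from the expression table of C18-4 cells. C18-4 is an immortalized line derived from mouse spermatogonia. Of the 54 symbols, 53 had a row among the 17576 genes of the table, and lumican (Lum) was not analysed here. The 42 members with at least 1 RPKM (reads per kilobase of transcript, scaled to the mapped reads of the library) in at least 3 of the 12 libraries were tested, together with all 11435 genes above this limit. The remaining 11 members stayed below it.

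The libraries formed 4 groups of 3, and the study compared them to learn what lncRNA5251, a long noncoding RNA found in sperm, changes in these cells. All cells were stably transfected with lentiviral constructs and carried the strain label "IRC mouse". The group 3NC carried the LV3 vector with a control shRNA, and C18_5251KD, written KD, carried LV3 with mixed shRNAs against lncRNA5251. The group 5NC carried the LV5 vector, and C18_5251OV, written OV, carried LV5 with full-length lncRNA5251. No untransfected cells were among the 12 libraries. The main methods and the labels name lncRNA5251, whereas the supplementary methods head the same cell experiment with the name of another lncRNA and give a different number of shRNAs. lncRNA5251 has no row in the table, so its own level was not analysed here and the group names stand as the labels give them. The labels do not say whether the 3 libraries of a group came from separate cultures, so the p-values measure only the spread between these libraries.

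Collagens are secreted as trimers of alpha chains. Fibrillar collagens such as I, III and V build cables, collagen IV forms the sheet of the basement membrane, and collagen VI makes beaded filaments. Proteoglycans such as decorin and biglycan bind and space the fibrils, fibrillins and fibulins scaffold elastic fibres, and lysyl oxidases crosslink collagen and elastin. Matrix metalloproteinases degrade these proteins and are held back by the TIMP inhibitors. In the testis, spermatogonia rest on a basement membrane that is laid down jointly by Sertoli cells and peritubular myoid cells.

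The libraries of a group resembled each other closely, with Spearman correlations of 0.987 to 0.990 across genes, and no 2 libraries of a group held the same values. KD replicate 3 and OV replicate 3 stood farthest from the other libraries of their groups, with a median absolute log2 difference of 0.114 and 0.124 against 0.0508 to 0.101 for the other 10 libraries. KD replicate 3 was the lowest of its group for 34 of the 42 members, and counts of called members are therefore also given without these 2 libraries. Of 18 germ cell markers with a row, 15 were below the limit of 1 RPKM in 3 libraries. Ret, Nanos2, Kit and Pou5f1 were listed at 0 in every group mean, and Gfra1, Zbtb16, Ddx4 and Dazl had group means of at most 0.147 RPKM. Uchl1 was the only germ cell marker at a high level, with 77.1 ± 4.62 RPKM (SD, n = 3) in 3NC. The mesenchymal genes Vim and S100a4 were abundant, and Acta2 and Tagln were detected, whereas the fibroblast genes Thy1 and Dpt had group means of at most 0.0533 RPKM and the endothelial, Leydig and immune lists summed to at most 5.67 RPKM in any library. The Sertoli cell list summed to 59.0 to 67.8 RPKM over the 12 libraries. Most defining germ cell markers were thus at or near 0 in cells labelled spermatogonial. In bulk RNA, fewer cells of a type and less RNA per cell cannot be told apart.

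The matrix genes together held 0.592 to 0.603% of the summed RPKM in 3NC and 0.713 to 0.784% in KD. With the LV5 vector they held 0.938 to 0.968% in 5NC and 0.884 to 0.908% in OV. No library of one group overlapped with those of another in this share. The order of the groups by this share was thus 3NC, KD, OV and 5NC. The summed RPKM of the members, not taken as a share, overlapped between OV (4878 to 5138) and 5NC (5061 to 5210). Sparc, a secreted collagen-binding glycoprotein, was the most abundant member and ranged from 634 to 1335 RPKM over the 12 libraries. It was followed by Serpinh1, the collagen chaperone HSP47 of the endoplasmic reticulum, by Col1a1, by the protease inhibitor Timp2 and by Pcolce, an enhancer of procollagen C-proteinase. These 5 genes made up 49.7 to 59.7% of the summed RPKM of the members. Altogether 8 members had a mean over 100 RPKM, 27 a mean of 10 to 100, 6 a mean of 1 to 10 and 12 a mean under 1.

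Chains that assemble into 1 collagen were present at very unequal levels. Col1a1 stood at 259.6, 249 and 260.0 RPKM in 3NC, at 400.3, 384 and 315 in KD, at 383, 381 and 378 in 5NC and at 437, 429 and 405 in OV, while Col1a2, which encodes the second chain of the usual type I trimer, did not exceed 0.58 RPKM in any library. The Col1a2 level over the Col1a1 level, both per length, was at most 0.00151. Col6a3 was listed at 0 in 11 libraries, whereas its partner chains Col6a1 and Col6a2 were at 45.3 to 125 and 26.1 to 90.6 RPKM. Col4a6 did not exceed 0.38 RPKM beside a Col4a5 level of 25.5 to 43.9. Elastin (Eln) was listed at 0 in 10 libraries, although Fbn1, Fbln2, Efemp2 and Fbln5, which scaffold or assemble elastic fibres, were all detected. Thbs2, Postn, Mfap2, Mfap5, Col7a1, Col11a1 and Col27a1 completed the members below the limit, the highest value among them being 0.62 RPKM for Col27a1. The neighbouring genes Col4a2 and Col4a1 were closer to each other in level. Col4a2 over Col4a1 was 0.597 ± 0.00466 (SD, n = 3) in 3NC and 0.646 ± 0.0147 in KD, and with LV5 it was 0.597 ± 0.0149 in 5NC and 0.623 ± 0.0235 in OV. These genes lie head to head on chromosome 8, with RefSeq spans that overlap by 85 bases, and whether the counting used strand is not given in the sources used here.

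**Figure D1:**
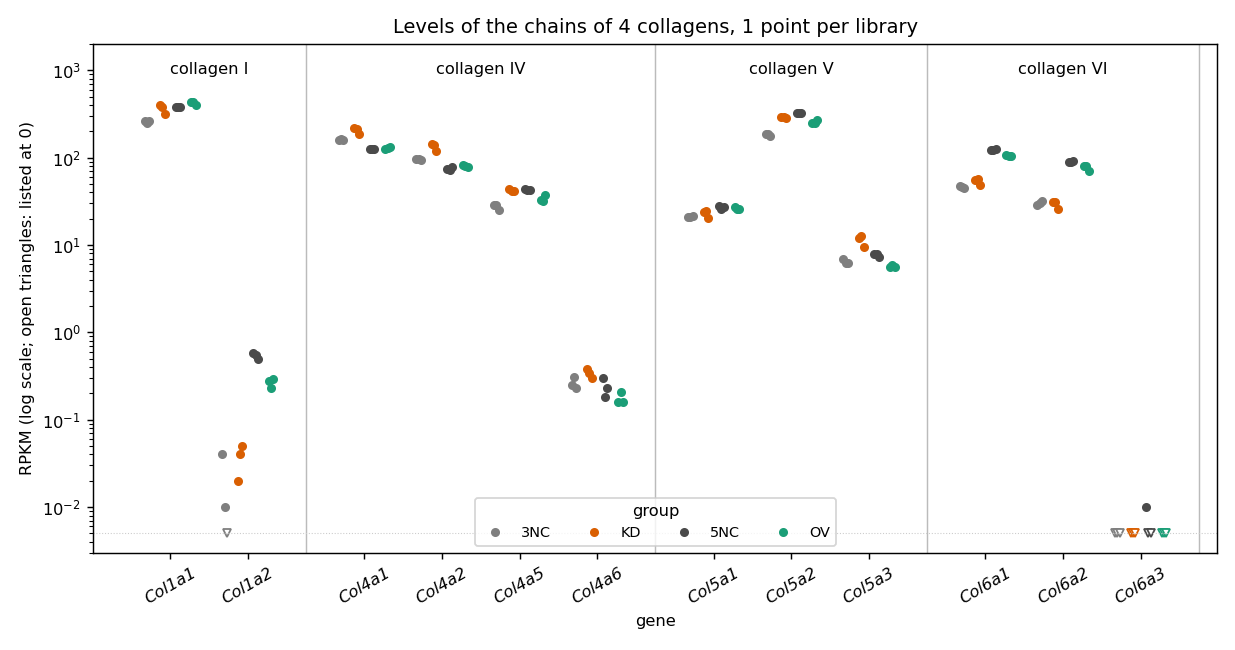
RPKM (log axis) of the chains of collagens I, IV, V and VI, with 1 point per library coloured by group and open triangles for values listed at 0. Col1a1 lies above 249 RPKM in every library and Col1a2 at or below 0.58, and Col6a3 is listed at 0 in 11 of 12 libraries.

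The knockdown libraries were compared with their vector control, 3NC, to find the genes that differ when shRNAs against lncRNA5251 are present. In KD, 22 of the 42 members were higher than in 3NC and 8 were lower, at an adjusted p of at most 0.05 in limma. Over all genes tested, 31.9% were higher and 23.5% were lower. The median log2 fold change of the members was 0.21, against 0.04 over all genes. The rises were moderate, and 11 of the 22 were among fibrillar collagens and basement membrane genes and 11 among the other roles, while the largest changes were falls of osteopontin, fibronectin and lysyl oxidase. At the limits the study used, an adjusted p of at most 0.001 and a log2 fold change of at least 1, no member was higher and 2 were lower, beside 0.498% and 1.08% of all genes. Without KD replicate 3, 26 members were higher and 7 lower. Among 8 tested markers of myoid cells and fibroblasts, 6 were also higher in KD and none was lower, the whole list summing to 1032 to 1093 RPKM against 900 to 934 in 3NC. Of these markers, Pdgfrb reached 1 RPKM in no 3NC library. Of 4 tested epithelial markers, 3 were higher and none lower, with the list at 104 to 110 RPKM in KD against 68.6 to 73.9 in 3NC. All 3 tested germ cell markers were lower, and that list summed to 64.4 to 72.8 RPKM against 83.3 to 91.8. The immune list summed to 2.55 to 2.89 RPKM in KD against 4.13 to 5.67 in 3NC, and its 1 tested marker was lower. The part of these markers in the result was not tested.

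Among the fibrillar collagens, 4 of 5 tested genes rose in KD and none fell, beside 31.9% and 23.5% of all genes. Col3a1, the chain of type III collagen, was at 36.8, 36.2 and 35.03 RPKM in 3NC, at 61.1, 61.3 and 56.1 in KD, at 116, 117 and 119.6 in 5NC and at 101.2, 104 and 108 in OV. It rose by 1.65-fold in KD (log2 fold change 0.71 ± 0.05 (SE), adjusted p = 8.72e-09), and the 3 libraries did not overlap with those of 3NC. Col5a2 of type V collagen was at 186, 186 and 179 RPKM in 3NC and at 293, 295 and 286 in KD (log2 fold change 0.66 ± 0.04 (SE), adjusted p = 3.84e-09). Its partner Col5a1 was at 21.0, 20.8 and 21.3 RPKM in 3NC and at 23.7, 24.3 and 20.5 in KD, with overlapping groups and no call (log2 fold change 0.11, adjusted p = 0.139). The level of Col5a2 over that of Col5a1 was accordingly 12.8 ± 0.958 (SD, n = 3) in KD against 8.73 ± 0.294 in 3NC. Col5a3, a less abundant type V chain, was at 6.98, 6.20 and 6.29 RPKM in 3NC, at 12.1, 12.7 and 9.56 in KD, at 7.97, 7.99 and 7.23 in 5NC and at 5.60, 5.88 and 5.54 in OV. It rose in KD (log2 fold change 0.72 ± 0.09 (SE), adjusted p = 5.26e-06) and no other group reached the level of the KD libraries. Col1a1 rose by 1.43-fold (log2 fold change 0.51 ± 0.07 (SE), adjusted p = 1.59e-05), with replicate 3 of KD, at 315 RPKM, below the other libraries of this group and still above 3NC.

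Of the 8 basement membrane genes tested, 7 rose in KD and none fell, beside 31.9% and 23.5% of all genes. Agrn, which encodes the heparan sulfate proteoglycan agrin, was at 18.8, 18.2 and 19.4 RPKM in 3NC, at 31.5, 33.0 and 28.5 in KD, at 20.3, 21.5 and 22.1 in 5NC and at 19.5, 19.6 and 18.8 in OV. It was highest in the KD libraries without overlap (log2 fold change 0.69 ± 0.06 (SE), adjusted p = 1.39e-07). Col4a1, a main chain of type IV collagen, was at 160.4, 162 and 157 RPKM in 3NC, at 218, 213 and 188 in KD, at 124, 124 and 126 in 5NC and at 127, 127 and 131 in OV. Its rise was 1.29-fold (log2 fold change 0.36 ± 0.05 (SE), adjusted p = 1.87e-05), and Col4a2 rose together with it by 1.40-fold (log2 fold change 0.48 ± 0.06 (SE), adjusted p = 6.52e-06). Col4a5, a chain of a second type IV network, rose by 1.54-fold. The linker proteins Nid1 and Nid2 and the large proteoglycan Hspg2 (perlecan) rose by 0.49, 0.34 and 0.37 on the log2 scale. Col18a1, the precursor of endostatin, was at 2.77, 2.15 and 2.14 RPKM in 3NC and at 2.39, 2.16 and 1.45 in KD and was not called.

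Apart from the proteoglycans of the basement membrane, the small proteoglycans decorin and biglycan rose, and versican fell. Decorin (Dcn), which binds fibrillar collagen, was at 21.7, 22.2 and 20.9 RPKM in 3NC, at 35.9, 34.4 and 38.1 in KD, at 112, 115 and 109 in 5NC and at 112, 107 and 105 in OV and rose 1.67-fold in KD (log2 fold change 0.71 ± 0.05 (SE), adjusted p = 1.35e-08). Biglycan (Bgn), its close relative, was at 69.2, 70.7 and 68.5 RPKM in 3NC, at 100.3, 99.7 and 93.0 in KD, at 70.0, 78.2 and 77.9 in 5NC and at 56.5, 52.9 and 46.5 in OV and rose 1.41-fold (log2 fold change 0.48 ± 0.06 (SE), adjusted p = 1.53e-05). The KD libraries had the highest biglycan levels of all 12. Versican (Vcan), a large hyaluronan-binding proteoglycan, was at 3.21, 3.0 and 3.04 RPKM in 3NC, at 1.71, 1.65 and 1.91 in KD, at 1.18, 1.40 and 1.29 in 5NC and at 1.34, 1.25 and 1.48 in OV. All 9 other libraries lay below those of 3NC, and versican fell in KD (log2 fold change -0.57 ± 0.08 (SE), adjusted p = 1.62e-05).

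The adhesive glycoproteins held the strongest falls. Spp1, which encodes the integrin ligand osteopontin, was at 187, 185 and 172 RPKM in 3NC, at 62.5, 60.7 and 67.4 in KD, at 48.1, 51.3 and 51.8 in 5NC and at 47.6, 43.8 and 46.2 in OV. The 3NC libraries alone were high, and the level in KD was 0.350 times that of 3NC (log2 fold change -1.50 ± 0.05 (SE), adjusted p = 1.78e-11). Fn1, which encodes fibronectin, was at 7.65, 8.62 and 8.57 RPKM in 3NC, at 3.45, 3.67 and 3.23 in KD, at 7.35, 7.50 and 8.19 in 5NC and at 6.93, 7.86 and 8.19 in OV. Here the KD libraries alone were low, at 0.417 times the 3NC level (log2 fold change -1.06 ± 0.07 (SE), adjusted p = 2.4e-08). These were the 2 members past the limits of the study. Sparc, in contrast, was at 643, 645 and 634 RPKM in 3NC, at 1104, 1126 and 1062 in KD, at 1195, 1278 and 1301 in 5NC and at 1335, 1305 and 1223 in OV and rose 1.71-fold (log2 fold change 0.78 ± 0.05 (SE), adjusted p = 5.02e-09). Tnc and Thbs1, which encode tenascin C and thrombospondin 1, were not called, with log2 fold changes of 0.13 and 0.09.

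Among enzymes of collagen processing, Lox, the founding lysyl oxidase, was at 41.96, 40.5 and 39.4 RPKM in 3NC, at 20.8, 18.8 and 21.4 in KD, at 58.4, 62.0 and 58.7 in 5NC and at 44.2, 43.2 and 50.0 in OV. Its level in KD was 0.501 times that of 3NC (log2 fold change -0.97 ± 0.06 (SE), adjusted p = 6.77e-09), and the KD libraries were the lowest of the 12. The related oxidase Loxl2 changed the other way and was at 90.3, 89.8 and 89.1 RPKM in 3NC and at 130.1, 128 and 122 in KD (log2 fold change 0.49 ± 0.04 (SE), adjusted p = 1.24e-07). Pcolce was at 245, 237 and 241 RPKM in 3NC, at 315, 339 and 287 in KD, at 298, 302 and 300.4 in 5NC and at 361, 345 and 303 in OV and rose in KD by 0.37 on the log2 scale. Serpinh1 was at 312, 303 and 308 RPKM in 3NC and at 312, 325 and 283 in KD, with overlapping groups and no call. Loxl1 was not called either (adjusted p = 0.0634), but passed the test without KD replicate 3 (adjusted p = 0.00347).

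Members of the remaining roles changed in both directions in KD. Fbn1, which encodes the microfibril protein fibrillin 1, was at 17.9, 18.5 and 17.8 RPKM in 3NC, at 30.3, 29.1 and 28.5 in KD, at 40.9, 42.7 and 43.0 in 5NC and at 28.2, 33.7 and 38.0 in OV and rose 1.62-fold against 3NC (log2 fold change 0.67 ± 0.08 (SE), adjusted p = 3.61e-06). Efemp2 also rose and Fbln1 fell among the 6 elastic fibre genes tested, by log2 fold changes of 0.14 and -0.18. Of the proteases and inhibitors, Timp3, a TIMP that is bound to the matrix, was at 33.7, 32.9 and 30.9 RPKM in 3NC, at 45.1, 45.5 and 47.9 in KD, at 121, 127 and 126 in 5NC and at 87.1, 90.9 and 102 in OV and rose 1.42-fold (log2 fold change 0.49 ± 0.06 (SE), adjusted p = 3.21e-06). The soluble inhibitor Timp1 fell and was at 66.4, 67.0 and 67.1 RPKM in 3NC and at 52.4, 54.6 and 50.9 in KD (log2 fold change -0.34 ± 0.06 (SE), adjusted p = 0.000404). The level of Timp3 over that of Timp1 was 0.487 ± 0.0242 (SD, n = 3) in 3NC and 0.878 ± 0.0562 in KD. The gelatinase Mmp2 rose by 0.26 on the log2 scale, while Mmp14, which activates it, and Timp2 were not called. Among other collagens, Col6a1 and Col16a1 rose and Col12a1 and Col8a1 fell. Col12a1, a collagen that associates with fibrils, was at 6.44, 7.07 and 6.93 RPKM in 3NC and at 5.45, 5.16 and 4.88 in KD (log2 fold change -0.34 ± 0.09 (SE), adjusted p = 0.00582). The fall of Col8a1 was not called without KD replicate 2 (adjusted p = 0.0836).

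**Figure D2:**
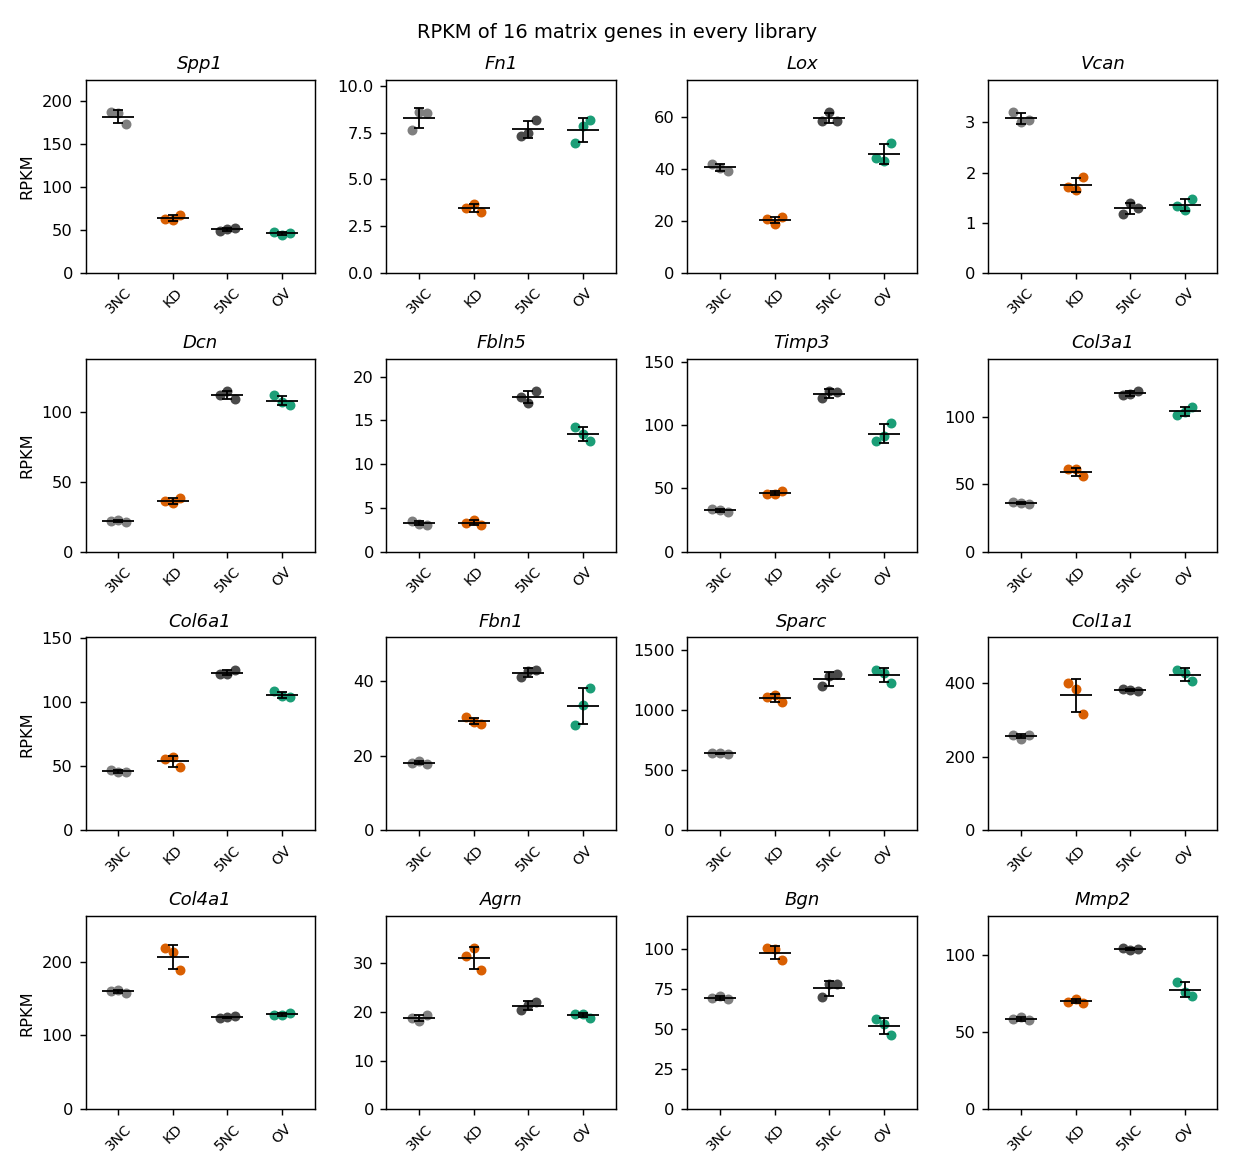
RPKM of 16 matrix genes in each of the 12 libraries, as 1 point per library with the mean (bar) and SD (error bar) of the 3 libraries of a group, each axis starting at 0. Fn1 and Lox are lowest in KD, Spp1 is highest in 3NC, and Dcn, Fbln5, Timp3, Col3a1 and Col6a1 are high in both groups with the LV5 vector.

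The overexpression libraries were compared with their own vector control, 5NC. No member was higher in OV and 18 of 42 were lower at an adjusted p of at most 0.05 in limma, beside 8.07% and 13.9% of all genes. The median log2 fold change was -0.14 for the members and -0.03 for all genes. At the limits of the study, no member and 0% of all genes were called in either direction, although 923 genes were higher and 1595 lower by the first limit, an adjusted p of at most 0.05. The falls were small, the largest on the log2(RPKM + 1) scale being that of biglycan, and they were found in each role except the adhesive glycoproteins. Without OV replicate 3, 2 members were higher and 19 lower, and without both libraries that stood apart, 5 were higher and 22 lower. Without 5NC replicate 2, 11 were lower. Of the 8 markers of myoid cells and fibroblasts, 1 was lower in OV and 2 were higher, and their list summed to 1034 to 1148 RPKM in OV against 918 to 967 in 5NC. Of the 4 epithelial markers 1 was lower, and of the 3 germ cell markers 1 was higher, the germ cell list summing to 110 to 128 RPKM in OV against 94.4 to 98.3 in 5NC. The part of these markers in the result was not tested.

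Biglycan had the largest fall on the log2(RPKM + 1) scale and was at 0.689 times the 5NC level (log2 fold change -0.53 ± 0.06 (SE), adjusted p = 0.00018). Its values, given above, did not overlap between the groups. Decorin was not called in the same comparison (log2 fold change -0.05, adjusted p = 0.459). The level of Dcn over that of Bgn was therefore 2.09 ± 0.152 (SD, n = 3) in OV and 1.49 ± 0.1004 in 5NC. Mmp2 was at 58.3, 59.8 and 57.6 RPKM in 3NC, at 69.8, 71.4 and 69.2 in KD, at 104, 103 and 104 in 5NC and at 82.8, 76.2 and 73.5 in OV, and the OV libraries lay below all 5NC libraries (log2 fold change -0.42 ± 0.05 (SE), adjusted p = 7.76e-05). Timp3 was at 0.747 times the 5NC level (log2 fold change -0.42 ± 0.06 (SE), adjusted p = 0.00036), again without overlap.

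Of the other collagens, 4 of 5 fell in OV, beside 13.9% of all genes. Col12a1 was at 16.7, 17.8 and 17.2 RPKM in 5NC and at 10.8, 12.6 and 15.5 in OV and its fall (log2 fold change -0.40 ± 0.09 (SE), adjusted p = 0.01) was uneven among the OV libraries. Col6a1 fell by 0.22 on the log2 scale. Col6a2 and Col8a1 were called narrowly (adjusted p = 0.0385 and 0.0449) and these calls were not kept with fewer libraries. Both were also lost in limma without the filter on low values (adjusted p = 0.0804 and 0.079). The same held without the trend of the variance with expression (adjusted p = 0.0582 and 0.058). Col6a2 lost the call when any library of either group was left out (adjusted p = 0.0652 to 0.104), and Col8a1 when any was left out except OV replicate 3 (adjusted p = 0.0942 to 0.206). Of the fibrillar collagens, Col5a3, Col5a2 and Col3a1 fell. Col5a3 showed the largest of these changes (log2 fold change -0.39 ± 0.09 (SE), adjusted p = 0.00792) and Col5a2 a change of -0.34 (adjusted p = 0.000142). The fall of Col3a1 was small (-0.17) and was not called without 5NC replicate 2 or 3 or without OV replicate 1 or 2 (adjusted p = 0.0536 to 0.0688). Col1a1 was at 383, 381 and 378 RPKM in 5NC and at 437, 429 and 405 in OV. All 3 libraries of OV were above those of 5NC, but the difference was not called (adjusted p = 0.118).

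Among elastic fibre genes, Fbln5, Fbn1 and Fbln2 fell in OV. Fbn2 was also called lower, but reached 1 RPKM only in the 5NC libraries and so entered the test through the group in which it was high. Fibulin 5 (Fbln5), needed to assemble elastic fibres, was at 3.49, 3.10 and 3.07 RPKM in 3NC, at 3.27, 3.62 and 3.04 in KD, at 17.6, 17.0 and 18.4 in 5NC and at 14.3, 13.5 and 12.7 in OV and stood at 0.762 times the 5NC level (log2 fold change -0.37 ± 0.07 (SE), adjusted p = 0.00379). Fbn1 fell by 0.34 on the log2 scale. Col4a5 and Nid2 were the basement membrane genes that fell, by 0.34 and 0.16, while Col4a1 and Col4a2 were not called (adjusted p = 0.556 and 0.212). Lox was at 0.767 times the 5NC level (log2 fold change -0.38 ± 0.06 (SE), adjusted p = 0.00138) and was the collagen processing gene that fell. Pcolce and Serpinh1 had positive log2 fold changes of 0.16 and 0.15 that passed the test after OV replicate 3 was left out (adjusted p = 0.00438 and 0.00905). Spp1, Fn1, Sparc, Tnc and Thbs1 were not called, and the adjusted p of the fibronectin gene was 0.972.

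**Figure D3:**
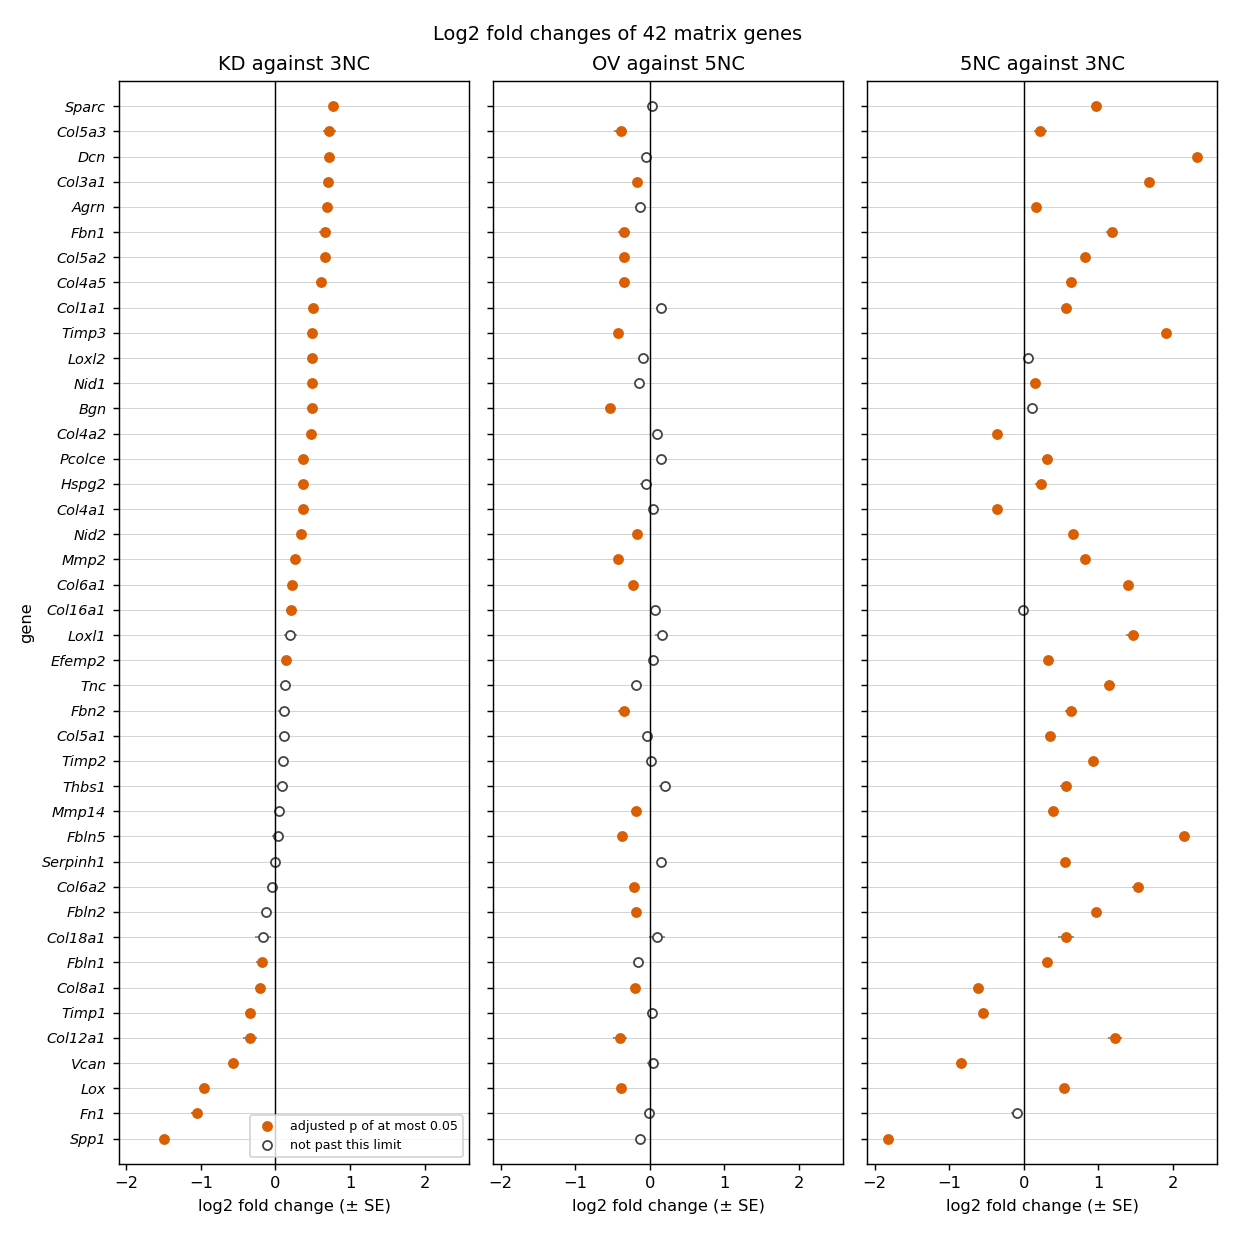
Log2 fold change ± SE, on log2(RPKM + 1), of the 42 members for KD against 3NC (left), OV against 5NC (middle) and 5NC against 3NC (right), ordered by the left panel, with filled points at an adjusted p of at most 0.05. In OV against 5NC the filled points all lie below 0, while in 5NC against 3NC they reach 2.32 for Dcn and -1.83 for Spp1.

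The 2 control groups were compared as well, since each of the contrasts above rests on 1 of them. They differed by the vector and by the presence of a control shRNA, and these cannot be told apart, nor from any difference between the cultures. In 5NC, 32 of 42 members were higher than in 3NC and 6 were lower in limma, beside 31% and 25.6% of all genes. At the limits of the study, 10 members were higher and 1 was lower, beside 1.56% and 1.05% of all genes. The median log2 fold change was 0.56 for the members and 0.02 for all genes. The groups did not overlap for 39 of the 42 members, and for 69.3% of all genes tested. The fibrillar collagens (5 of 5 tested), the elastic fibre genes (6 of 6) and both detected chains of collagen VI were higher in 5NC. One of the elastic fibre genes, Fbn2, passed the limit of 1 RPKM only through the 5NC libraries, so its direction was set by the limit. Of the same 8 markers, 2 were higher in 5NC and 3 were lower, and their list summed to 918 to 967 RPKM against 900 to 934 in 3NC. Of these, Pdgfrb reached 1 RPKM in no 3NC library. Of the 4 epithelial markers, 2 were higher and 1 was lower, and of the 3 germ cell markers 1 was higher and 1 lower, the germ cell list summing to 94.4 to 98.3 RPKM in 5NC against 83.3 to 91.8 in 3NC. The immune list summed to 2.05 to 2.34 RPKM against 4.13 to 5.67. The part of these markers in the result was not tested.

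Decorin showed the largest rise on the log2(RPKM + 1) scale, with a mean RPKM 5.18-fold that of 3NC (log2 fold change 2.32 ± 0.05 (SE), adjusted p = 4.65e-14). Biglycan was not called in this comparison (adjusted p = 0.143), and the level of Dcn over that of Bgn was 1.49 ± 0.1004 (SD, n = 3) in 5NC against 0.311 ± 0.00552 in 3NC. Fbln5, whose lower level weighs the added 1 more, followed with 5.49-fold (log2 fold change 2.15 ± 0.07 (SE), adjusted p = 4.95e-12) and Timp3 with 3.84-fold (log2 fold change 1.91 ± 0.06 (SE), adjusted p = 1.86e-12). Col3a1 rose 3.27-fold (log2 fold change 1.68 ± 0.05 (SE), adjusted p = 8.74e-13). In these 4 genes the LV5 groups lay far above both LV3 groups.

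Both detected chains of collagen VI were higher in 5NC than in 3NC. In KD, Col6a1 was called higher (log2 fold change 0.22 ± 0.05 (SE), adjusted p = 0.00185) and Col6a2 was not called (log2 fold change -0.05, adjusted p = 0.585). Col6a1 was at 47.2, 45.6 and 45.3 RPKM in 3NC, at 56.0, 56.9 and 49.2 in KD, at 122, 122 and 125 in 5NC and at 109, 105 and 104 in OV and rose 2.67-fold in 5NC (log2 fold change 1.40 ± 0.05 (SE), adjusted p = 1.47e-11). Col6a2 was at 28.7, 30.4 and 32.2 RPKM in 3NC, at 31.5, 31.0 and 26.1 in KD, at 89.2, 89.0 and 90.6 in 5NC and at 80.1, 80.6 and 71.1 in OV and rose 2.94-fold (log2 fold change 1.53 ± 0.07 (SE), adjusted p = 1.06e-10). The genes are neighbours on the same strand of chromosome 10. Col12a1 rose 2.53-fold (log2 fold change 1.22 ± 0.09 (SE), adjusted p = 3.79e-08). Loxl1, a lysyl oxidase that acts on elastic fibres, was at 17.0, 15.0 and 18.1 RPKM in 3NC, at 21.0, 20.7 and 16.5 in KD, at 49.0, 45.9 and 48.3 in 5NC and at 55.5, 56.1 and 49.3 in OV and rose 2.86-fold (log2 fold change 1.46 ± 0.09 (SE), adjusted p = 2.15e-09). Tnc was at 4.52, 4.43 and 4.70 RPKM in 3NC, at 5.13, 5.47 and 4.62 in KD, at 11.1, 11.04 and 11.8 in 5NC and at 8.98, 10.3 and 10.4 in OV and rose 2.48-fold (log2 fold change 1.15 ± 0.07 (SE), adjusted p = 3.74e-09). Fbn1 was the last member past the limits of the study, with a log2 fold change of 1.18. Fbn2, the second fibrillin, reached 1 RPKM only in the 5NC libraries and so entered the test through them, at 0.310, 0.340 and 0.350 RPKM in 3NC and at 1.01, 1.15 and 1.07 in 5NC.

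The 5 most abundant members were also higher in 5NC. Sparc was 1.96-fold higher in 5NC, Timp2 1.91-fold, Col1a1 1.49-fold, Serpinh1 1.47-fold and Pcolce 1.25-fold, all at an adjusted p no larger than 0.000671. Timp2 was at 217, 211 and 207 RPKM in 3NC, at 231, 231 and 218 in KD, at 399, 405 and 409 in 5NC and at 407, 417 and 401 in OV, with the LV5 libraries apart from the LV3 libraries. Serpinh1 was at 467, 434 and 455 RPKM in 5NC and at 527, 509 and 472 in OV, above its range of 283 to 325 RPKM in the LV3 groups. The rises of Col5a3 and Agrn were small (0.22 and 0.17). The call was lost for Col5a3 when 3NC replicate 2 or 3 or 5NC replicate 1 or 2 was left out (adjusted p = 0.107 to 0.120), and for Agrn without 3NC replicate 1 or 2 or 5NC replicate 2 or 3 (adjusted p = 0.0502 to 0.0828).

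The 6 members that were lower in 5NC were Spp1, Vcan, Col8a1, Timp1, Col4a1 and Col4a2. Spp1 was at 0.278 times the 3NC level (log2 fold change -1.83 ± 0.05 (SE), adjusted p = 1.86e-12). Vcan was at 0.418 times the 3NC level (log2 fold change -0.84 ± 0.08 (SE), adjusted p = 2.7e-07). Col8a1, a short-chain collagen, was at 30.6, 30.4 and 29.9 RPKM in 3NC, at 27.4, 23.9 and 27.3 in KD, at 19.4, 19.4 and 19.4 in 5NC and at 16.6, 15.3 and 18.6 in OV (log2 fold change -0.62 ± 0.07 (SE), adjusted p = 1.5e-06). Timp1 was at 66.4, 67.0 and 67.1 RPKM in 3NC and at 46.8, 43.5 and 46.6 in 5NC (log2 fold change -0.54 ± 0.06 (SE), adjusted p = 4.81e-06). The 2 type IV chains each had a log2 fold change of -0.35 (adjusted p = 2.26e-05 for Col4a1 and 0.000107 for Col4a2).

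**Figure D4:**
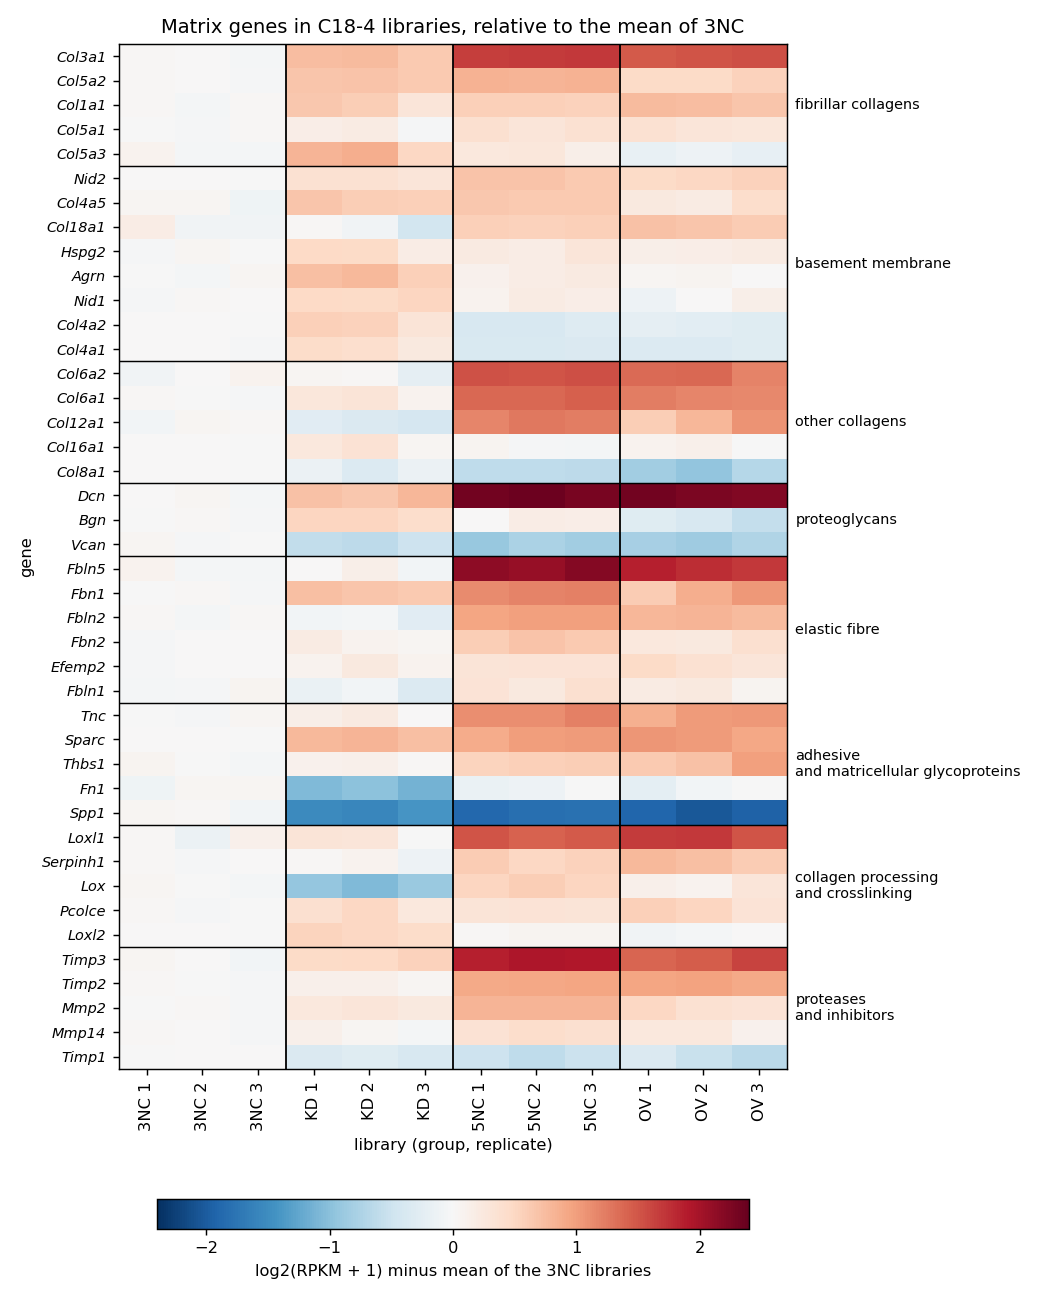
Log2(RPKM + 1) of the 42 tested members in each library minus the mean of the 3NC libraries, grouped by role and ordered within a role by the difference between 5NC and 3NC. Dcn, Fbln5, Timp3 and Col3a1 are most strongly higher in 5NC and are also higher in OV, Spp1 is lower in all groups than in 3NC, and Fn1 and Lox are lowest in KD.

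Because the controls differed, the knockdown was also set against 5NC, with which it shares neither vector nor shRNA. In KD, 12 members were higher than in 5NC and 26 were lower, beside 34% and 31.4% of all genes. The 26 include Fbn2, which passed the limit of 1 RPKM only through the 5NC libraries, so its direction was set by the limit. Without KD replicate 3, 13 were higher and 26 lower. None was higher and 10 were lower at the limits of the study, beside 1.26% and 2.29%. The median log2 fold change of the members was -0.34. Of 8 tested markers of myoid cells and fibroblasts, 4 were higher in KD and 1 was lower. Of 4 tested epithelial markers, 2 were higher and none was lower. All 3 tested germ cell markers were lower, the germ cell list summing to 64.4 to 72.8 RPKM in KD against 94.4 to 98.3 in 5NC. The part of these markers in the result was not tested. This comparison shares its KD libraries with the comparison against 3NC, so the values are set side by side only. Lox had a log2 fold change of -0.97 against 3NC and -1.51 against 5NC. For Fn1 these were -1.06 and -0.96, and for Col12a1 -0.34 and -1.57. On the other side, Col4a2 had 0.48 and 0.83, Col4a1 0.36 and 0.72, Agrn 0.69 and 0.52, Col5a3 0.72 and 0.50, Loxl2 0.49 and 0.44, Bgn 0.48 and 0.37, and Nid1 0.49 and 0.34. In these genes the KD libraries thus lay on the same side of both controls, and the largest adjusted p of these tests was 0.00582. Col16a1 (0.21 and 0.22) and Fbln1 (-0.18 and -0.50) were also called in the same direction against both, with adjusted p of up to 0.0359 in limma.

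For some other members the direction depended on the control. Dcn had a log2 fold change of 0.71 against 3NC and -1.61 against 5NC, Timp3 0.49 and -1.41, Col3a1 0.71 and -0.97, and Fbn1 0.67 and -0.51. Sparc had 0.78 and -0.20. The KD libraries lay between the controls for these genes. Spp1 was lower in KD than in 3NC (-1.50) and higher than in 5NC (0.33, adjusted p = 6.6e-05), as were Vcan, Col8a1 and Timp1. The call of Timp1 against 5NC was lost without 5NC replicate 2 (adjusted p = 0.0597).

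Whether knockdown and overexpression changed a gene differently, each against its own control, was tested as the difference of the 2 log2 fold changes. It was positive for 23 members and negative for 5 at an adjusted p of at most 0.05 in limma, beside 31.2% and 20.7% of all genes, with a median of 0.31 for the members and 0.07 for all genes. Without KD replicate 3 it was positive for 27 and negative for 5, without OV replicate 3 for 22 and 6, and without both for 27 and 6. The 23 positive differences include that of Fbn2 (0.46), which reached 1 RPKM only in the 5NC libraries and entered the test through them. Col5a3 had the highest difference, 1.11 (adjusted p = 3.91e-06), followed by Bgn with 1.02, Fbn1 with 1.01 and Col5a2 with 1.002. The 4 genes were higher in KD and lower in OV than in the respective control. The 5 negative differences were those of Spp1 (-1.37), Fn1 (-1.05), Vcan (-0.61), Lox (-0.59) and Timp1 (-0.37). Lox was lower in both comparisons, but more so in KD. Col12a1 was also lower in both, and the difference was not called (0.06, adjusted p = 0.741). For the 8 tested markers of myoid cells and fibroblasts, the difference was positive for 4 and negative for 1. For the 4 epithelial markers it was positive for 3 and negative for none. It was negative for all 3 germ cell markers and for the 1 tested immune marker. The part of these markers in the result was not tested.

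Promoter sequence was examined for the members, since many of them differed together between the vectors. RefSeq promoters (GRCm38.p6) were matched by symbol for 39 of the 53 members in the table, 30 of them among the 42 tested. The 250 bases before the first listed start are shown for Spp1, the member with the strongest fall, and for Timp3 and Col6a1, which rose strongly in 5NC. Capitals mark a match to a searched motif on either strand. The Spp1 window is chr5:104434861-104435110 on the plus strand, with a CCAAT box, read here as ATTGG, that begins 46 bases before the start. Spp1 has 2 listed starts, and the window before the second held none of the searched motifs. The Timp3 window is chr10:86300162-86300411 on the plus strand and holds none of the searched motifs. The Col6a1 window is chr10:76726045-76726294 on the minus strand, with an AP-1 site that begins 90 bases before the start.
Spp1: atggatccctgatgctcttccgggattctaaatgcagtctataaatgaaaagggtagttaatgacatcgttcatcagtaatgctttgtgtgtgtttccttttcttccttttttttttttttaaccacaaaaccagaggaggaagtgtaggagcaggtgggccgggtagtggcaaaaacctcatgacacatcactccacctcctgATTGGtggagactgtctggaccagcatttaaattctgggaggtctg
Timp3: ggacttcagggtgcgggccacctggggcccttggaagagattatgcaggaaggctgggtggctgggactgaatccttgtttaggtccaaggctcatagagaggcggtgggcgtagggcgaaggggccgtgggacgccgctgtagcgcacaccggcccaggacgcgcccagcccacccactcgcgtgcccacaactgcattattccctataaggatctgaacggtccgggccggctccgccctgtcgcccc
Col6a1: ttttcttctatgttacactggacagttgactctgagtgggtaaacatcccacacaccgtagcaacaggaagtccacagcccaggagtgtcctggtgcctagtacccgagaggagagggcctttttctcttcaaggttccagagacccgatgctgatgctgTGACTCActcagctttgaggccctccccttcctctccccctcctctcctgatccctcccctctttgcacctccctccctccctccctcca

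The AP-1 motif (TGANTCA), bound by Fos and Jun proteins, was found in 1 of the 30 tested members with a promoter, Col6a1, and in 6.75% of 32851 RefSeq promoters of the same length. The CCAAT box (CCAAT), bound by the factor NF-Y, was found in 13 of 30 members and in 33.8% of all promoters. The E-box CACGTG was found in 1 of 30 and in 6.02%. The core ACGTG of the hypoxia response element, which lies within that E-box, was found in 6 of 30 and in 16.6%. A member with several starts was counted once if any of its windows held the motif. The shares of all promoters count each start by itself, so the figures are not on the same basis. These are matches of letters and no evidence of binding.

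Genes of the surrounding pathways were counted from lists that hold no member of the set. Over all genes tested, 31.9% were higher and 23.5% lower in KD than in 3NC, and 31% and 25.6% in 5NC than in 3NC. The counts include Tll1, Mmp9, Mmp10, Mmp15, Mmp17, Fmod, Cspg5, Emilin2 and Ltbp1, which reached 1 RPKM in no library of at least 1 group. Of 22 genes of collagen biosynthesis tested, 12 (54.5%) were higher in KD than in 3NC and none was lower. In 5NC, 8 (36.4%) were higher and 5 (22.7%) lower, near the shares over all genes. P3h4, a cofactor of lysyl hydroxylation, had 33.2 ± 0.973 RPKM (SD, n = 3) in 3NC, 50.8 ± 1.15 in KD and 63.4 ± 3.49 in 5NC. It rose by 0.60 on the log2 scale in KD (adjusted p = 2.85e-07). Tmem38b, an ion channel of the endoplasmic reticulum, rose in KD (log2 fold change 0.61 ± 0.09 (SE), adjusted p = 5.12e-05) and was not called in 5NC. Tll1, a procollagen C-proteinase, was at 0.280 ± 0.0436 RPKM in 3NC and 1.997 ± 0.0757 in 5NC and passed the limit of 1 RPKM only through the LV5 groups. The crosslinking enzyme Tgm2 was called in 5NC (0.94) and not in KD (adjusted p = 0.4).

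Of 25 matrix proteases and genes of the plasminogen system, 11 (44%) were higher and 8 (32%) lower in KD than in 3NC, beside 31.9% and 23.5% of all genes. In 5NC, 9 (36%) were higher and 8 (32%) lower, beside 31% and 25.6%. The aggrecanase Adamts5 was at 4.83 ± 0.251 RPKM (SD, n = 3) in 3NC, 16.8 ± 1.01 in KD and 17.0 ± 0.486 in 5NC. The stromelysin Mmp10 was at 4.38 ± 0.223, 0.643 ± 0.0252 and 0.243 ± 0.0971 RPKM in the same groups, and it passed the limit of 1 RPKM only through the 3NC libraries. In OV the 2 genes were at 15.7 ± 1.304 and 0.623 ± 0.0751 RPKM. The Adamts5 levels, like those of Spp1, set 3NC apart from the other groups. Mmp19 was lower in both comparisons, with log2 fold changes of -0.39 in KD and -1.08 in 5NC.

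Of 12 other proteoglycans and hyaluronan genes, 6 (50%) were higher and 4 (33.3%) lower in KD, beside 31.9% and 23.5% of all genes, and 8 (66.7%) were higher and 2 (16.7%) lower in 5NC, beside 31% and 25.6%. Ogn, a small leucine-rich proteoglycan like decorin, was at 2.84 ± 0.0961 RPKM (SD, n = 3) in 3NC, 4.76 ± 0.848 in KD and 10.4 ± 0.274 in 5NC (log2 fold change 1.56 ± 0.10 (SE), adjusted p = 5.1e-09). The cell-surface proteoglycan Gpc4 rose by 1.02 in KD on the log2 scale, and Tgfbr3 fell (log2 fold change -0.85 ± 0.07 (SE), adjusted p = 1.16e-07). Fmod, which encodes fibromodulin, entered the test through the LV5 groups, with 1.22 ± 0.121 RPKM in 5NC.

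Of 20 other matrix glycoproteins, 7 (35%) were higher and 7 (35%) lower in KD, beside 31.9% and 23.5% of all genes, and 9 (45%) were higher and 6 (30%) lower in 5NC, beside 31% and 25.6%. Efemp1, a fibulin, rose from 74.2 ± 1.60 RPKM (SD, n = 3) in 3NC to 145 ± 13.2 in KD (log2 fold change 0.96 ± 0.05 (SE), adjusted p = 1.83e-09) and 173 ± 2.80 in 5NC. Ltbp1, which tethers latent TGF-beta to the matrix, was at 4.12 ± 0.0513 RPKM in 3NC and 0.860 ± 0.0458 in KD, and reached 1 RPKM only in the 3NC libraries and in 1 OV library. The matricellular gene Ccn4 was lower in KD (-0.56) and higher in 5NC (1.53) than in 3NC. Ccn3 was lower in KD (-0.20) and higher in 5NC (1.08). Of 19 genes of TGF-beta signalling, a pathway known to raise collagen synthesis, 5 (26.3%) were higher and 4 (21.1%) lower in KD, near the shares over all genes, and 11 (57.9%) were higher and 3 (15.8%) lower in 5NC. The ligands Tgfb2 and Tgfb3 were higher in 5NC than in 3NC by 0.96 and 0.87 on the log2 scale, and so was the target gene Pmepa1 (0.76). The inhibitor Smad7 fell in KD, from 10.6 ± 0.197 to 6.22 ± 0.227 RPKM (log2 fold change -0.69 ± 0.06 (SE), adjusted p = 1.5e-07). In OV against 5NC, 8.07% of all genes were higher and 13.9% lower. There 4 of 22 genes of collagen biosynthesis were higher and 5 lower, of 25 proteases 2 and 6, of 12 proteoglycans 1 and 1, of 20 glycoproteins 1 and 6, and of 19 genes of TGF-beta signalling 3 and 2.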

How the data were processed

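The authors sequenced RNA of 12 C18-4 libraries, used SOAPaligner against a set of reference genes and deposited gene expression as RPKM in 1 table. The gene set, genome build and strand setting are not given in the sources used here. The labels name total RNA, whereas the methods describe oligo(dT) selection. Titles gave the group and the replicate number. The deposited RPKM values hold no read counts, so the depth is unknown and no count test was run. The summed RPKM was 533099 to 580920 per library.

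Values were analysed as log2(RPKM + 1), so a fold change understates that of a low gene, while the folds printed are ratios of mean RPKM. After removal of genes that did not reach 1 RPKM in 3 libraries, all 12 libraries entered a single limma fit (limma 3.58.1, R 4.3.3) on the group alone, with the prior variance following mean expression. The Benjamini-Hochberg adjustment ran over 11435 genes. An exact permutation test of 3 against 3 libraries cannot give a p below 0.1 and was not used. The fit was tested on simulated data. The members and lists were chosen with earlier results of these data known. The naming rule covered KD and OV, each against its own control, and 5NC against 3NC. Values per library are given for members past the limits of the study or among the 5 largest rises or falls there, and for the 5 highest levels. Col5a1, Col5a2, Col18a1, Loxl2 and Fbn2 were added after their values were seen. From each other list at most 4 genes with the largest called changes in KD or 5NC against 3NC are named, beside those below 1 RPKM in a whole group. Same-numbered libraries of the compared groups did not deviate together, with correlations of -0.178 to 0.176 between their deviations. Alternatives were a pseudocount of 0.1, no filter, quantile normalization, no trend, only the groups compared, a replicate block and each library left out. A gene that the naming rule selected from the pathway lists is not reported here.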

Additional observations from a re-analysis of the deposited data

How the results depend on the processing

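Effects of single genes were run under the alternatives only for the members that the naming rule selected for values per library. Other members named above, such as Col5a2, Col4a2 and Loxl2, were not run singly. None of the 99 called effects of the selected members, and no median, changed its direction under any alternative run. Of the 31 effects of the selected members that were not called, 12 changed sign in at least 1 alternative, among them Serpinh1 in KD against 3NC. Without a filter on low values the median log2 fold change of the members was 0.10 in KD against 3NC, -0.073 in OV against 5NC, 0.33 in 5NC against 3NC, -0.20 in KD against 5NC and 0.17 for the difference of the effects, since members near 0 then entered the median. With a pseudocount of 0.1, 2 members were lower in 5NC against 3NC at the limits of the study in place of 1, and quantile normalization gave 1 member higher in OV in place of none. The cause was not tested. Leaving out 1 library at a time gave medians of 0.15 to 0.28 in KD against 3NC, and in OV against 5NC 0 to 2 members higher and 11 to 19 lower. Leaving out replicate 3 of KD and of OV together, which was chosen after seeing the data, gave a median of 0.28 in KD against 3NC and 5 members higher in OV. The replicate numbers name libraries and do not pair them. A fit with the number as a replicate block gave 22 members higher and 8 lower in KD against 3NC and 18 lower in OV against 5NC, and 24 positive differences of the effects in place of 23, the added member being Pcolce (adjusted p = 0.0408). For the selected members taken singly, 1728 values kept their side of the threshold over all alternatives, 36 lost the call and 30 gained it. DESeq2 was not run, since the table holds RPKM. With RPKM only, the precision of low members such as Vcan and Fbn2 cannot be given from counts.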
